A study of Mus musculus with 4 samples.

Results

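Among the V segments of the mouse TCR alpha locus, some carry a double name because they can be joined either to an alpha J segment (TRAJ) or to a delta D segment, and their use was followed in splenic CD4 T cells. Members were all segments whose name, as the first V hit of a clone with the allele removed, holds DV, leaving out TRAV21/DV12, TRAV16D-DV11 and the names that begin with TRAV6. They numbered 11 of 101 V segments, 9748 of 189388 clones and 43889 of 871808 TCR alpha reads. Of the 11, 7 were TRAV/DV segments (TRAV4-4-DV10, TRAV13-4-DV7, TRAV14D-3-DV8, TRAV15-1-DV6-1, TRAV15-2-DV6-2, TRAV15D-1-DV6D-1 and TRAV15D-2-DV6D-2) and 4 were TRDV segments (TRDV1, TRDV2-1, TRDV2-2 and TRDV5), which have a delta name only and are taken in because their names hold DV as well. Results are therefore given for all 11 (DV segments) and, where they differ, for TRAV/DV and TRDV segments on their own, a split chosen after the data were seen. All other V segments are called other TRAV.

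The libraries came from the spleens of 2 wild type (WT) mice and 2 Tet2/3 DKO mice with an average age of 25 days. Tet2/3 DKO mice (Tet2-/- Tet3 flx/flx CD4Cre) lack Tet2 in the germ line and delete floxed Tet3 through CD4Cre, so that Tet3 is lost from the CD4 and CD8 double positive stage of thymic development, and WT mice carry neither deletion. Tet2 and Tet3 transcripts are not part of TCR tables, so the deletions could not be checked here. The sort took CD4+ CD25- TCRb+ cells that did not bind the aGalCer-Cd1d tetramer, which marks iNKT cells, so that the cells are αβ T cells by their surface chain. A clone is 1 unique read sequence that spans the V domain through its last framework region, and it comes with its number of reads. The libraries held 172506 and 216457 TCR alpha reads in WT and 195046 and 287799 in Tet2/3 DKO. No molecular identifiers were used, so that reads include PCR copies, and every confidence interval below covers counting error only.

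TCR alpha genes are assembled in the thymus by joining a V segment to a TRAJ segment, and the delta genes lie inside the alpha locus, between the V segments and the TRAJ cluster. A first alpha join generally uses V segments close to the TRAJ cluster and TRAJ segments at its V-proximal end, which have the highest numbers, and later joins on the same chromosome can use V segments farther away with TRAJ segments farther along the cluster. The CDR3, the loop that spans the join, is made of the last bases of V, a few trimmed or added bases and the first part of J. A distinct rearrangement here is one combination of V, J and CDR3 nucleotide sequence, counted once per library whatever its reads, and 8681 of 163158 distinct rearrangements used DV segments.

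The V segments entered the CDR3 with ends of different lengths, which are shown first because they bear on the CDR3 lengths given below. Each line gives the V part of the CDR3 most often read in clones whose V end was not trimmed, 5′ to 3′, with the codon of the conserved cysteine in capitals.
TRAV4-4-DV10: TGTgctgctgagg
TRAV14D-3-DV8: TGTgcagcaagtg
TRAV13-4-DV7: TGTgctatggaac
TRDV1: TGTggagggaaag
TRAV15-1-DV6-1: TGTgctctctgggagctgg
TRAV15-2-DV6-2: TGCgctctctcggaactga
TRAV15D-1-DV6D-1: TGTgctctctgggagc
TRDV2-2: TGTgctctcatggagcgc
The first 4 are 13 nucleotides long, the ends of TRAV15-1-DV6-1 and TRAV15-2-DV6-2 are 19, that of TRAV15D-1-DV6D-1 is 16 and that of TRDV2-2 is 18. TRAV15D-2-DV6D-2 had the same 19 nucleotides as TRAV15-2-DV6-2.

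DV segments made up about 5 of every 100 TCR alpha reads in both genotypes, and most of these came from 3 segments. They held 5.46% of reads in WT replicate 1 (95% Wilson interval 5.35% to 5.57%) and 4.92% in WT replicate 2 (4.83% to 5.02%). The Tet2/3 DKO libraries held 4.76% (4.67% to 4.86%) and 5.04% (4.97% to 5.13%). The genotypes overlapped, and the means were 5.19% ± 0.378 for WT against 4.90% ± 0.198 for Tet2/3 DKO (SD, n = 2 each; exact two-sided permutation p = 0.667, where the smallest p that 2 against 2 libraries allow is 0.33). Of distinct rearrangements, DV segments held 5.14% and 5.12% in WT, against 5.34% and 5.62% in Tet2/3 DKO. Both Tet2/3 DKO libraries were above both WT libraries, by 0.352 percentage points between the means (exact permutation p = 0.33, or 0.667 after Benjamini-Hochberg adjustment over 6 measures). TRDV segments alone did the same, at 1.21% ± 0.0958 for WT against 1.39% ± 0.00810 for Tet2/3 DKO (exact permutation p = 0.33, adjusted p = 0.5). TRAV/DV segments overlapped, at 3.92% ± 0.0794 against 4.09% ± 0.188 (exact permutation p = 0.667). For all DV segments, the share of reads and the share of rearrangements thus differed between genotypes in opposite directions. Neither of these 2 differences could pass the exact permutation test at this number of libraries.

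TRAV4-4-DV10 (chr14:53683677-53684177, GRCm38, the build to which mm10 corresponds) was the most used member, with 2.10% and 1.78% of reads in WT and 1.70% and 1.70% in Tet2/3 DKO. TRAV14D-3-DV8 (chr14:53078547-53079045), a D copy that lies between TRAV13D-4 and TRAV7N-4, followed with 1.30% and 1.25% in WT, against 1.14% and 1.12% in Tet2/3 DKO. TRDV1 (chr14:53881612-53882217), a segment named for the delta chain alone, had 1.39% and 0.98% in WT, against 1.08% and 1.09% in Tet2/3 DKO. The high value of WT replicate 1 held a clone of 731 reads, described below. TRAV13-4-DV7 (chr14:53757410-53757921) had 0.350% and 0.497% in WT, against 0.408% and 0.399% in Tet2/3 DKO.

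The TRAV15 copies were used less. TRAV15-2-DV6-2 (chr14:53649425-53649994) had 0.0788% and 0.137% of reads in WT and 0.122% and 0.0754% in Tet2/3 DKO. TRAV15-1-DV6-1 (chr14:53559676-53560247) had 0.0359% and 0.0739% in WT, against 0.0769% and 0.367% in Tet2/3 DKO. Its value in Tet2/3 DKO replicate 2 stood apart from the other 3 libraries, and 808 of its 1055 reads there belonged to 1 clone. TRAV15D-2-DV6D-2 (chr14:52956828-52957400) had 0.0667% and 0.0430% in WT, against 0.0513% and 0.166% in Tet2/3 DKO, again highest in Tet2/3 DKO replicate 2, where 1 clone held 164 of 477 reads. TRAV15D-1-DV6D-1 (chr14:52863365-52863933) had 0.0209% and 0.0554% in WT, against 0.0641% and 0.0368% in Tet2/3 DKO. The calls of these D copies cannot be told from their N copies in full: 79.1% of clones called TRAV15D-1-DV6D-1 and 100% of those called TRAV15D-2-DV6D-2 had an equally good hit to TRAV15N-1 or TRAV15N-2.

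The remaining TRDV segments were rare. TRDV2-2 (chr14:53960993-53961602) had 0.106% and 0.0929% of reads in WT and 0.0974% and 0.0757% in Tet2/3 DKO. TRDV2-1 (chr14:53946073-53946660) had 15 and 37 reads in WT and 50 and 21 in Tet2/3 DKO. TRDV5 (chr14:54148662-54149201), which lies beyond the delta constant region and closest of all members to the TRAJ cluster, was found as 1 clone in each of 3 libraries, with 2, 5 and 3 reads. Tet2/3 DKO replicate 1 had 0 of 195046 reads for TRDV5, which allows a share of up to 0.00154%. Every clone of the 11 members was joined to a TRAJ segment. Each one with a constant region hit was read into TRAC, the alpha constant region (2 TRDV1 clones had none). Only clones assembled as TCR alpha chains were examined, and no clone of any V segment had a J other than TRAJ. Joins of the members to delta segments could therefore not be seen here.

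**Figure D1:**
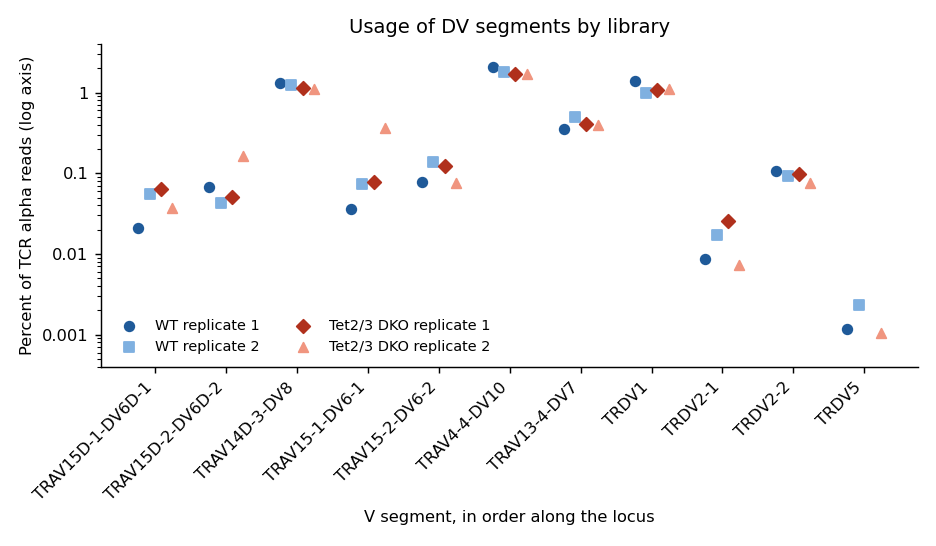
Percent of TCR alpha reads (log axis) for each of the 11 DV segments, in order along the locus, with 1 point per library (2 WT, 2 Tet2/3 DKO). TRAV4-4-DV10, TRAV14D-3-DV8 and TRDV1 lie near 1% or above in every library, TRAV15-1-DV6-1 stands out in Tet2/3 DKO replicate 2 at 0.367%, and the library with 0 reads for TRDV5 has no point.

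No member passed the test for a change in usage between the genotypes. In edgeR's quasi-likelihood test on reads per segment, 0 of 101 segments (0%) passed an adjusted p of 0.05, 3 (2.97%) had an unadjusted p under 0.05, and DESeq2 also called 0, with 4 at an unadjusted p under 0.05. Among the members the log2 fold change (Tet2/3 DKO over WT) was largest for TRAV15-1-DV6-1, at 2.01 ± 0.67 (SE; unadjusted p = 0.0141, edgeR adjusted p = 0.972), which is the segment with the clone of 808 reads. For TRAV4-4-DV10 it was -0.19 ± 0.16, for TRAV14D-3-DV8 -0.17 ± 0.16 and for TRDV1 -0.13 ± 0.20, all with an adjusted p of 0.972. With each rearrangement counted once these 3 turned to 0.0901, 0.0168 and 0.19. TRAV15-1-DV6-1 was at 0.31 on that count and at 0.48 without Tet2/3 DKO replicate 2. Without Tet2/3 DKO replicate 1, so that replicate 2 stood for that genotype on its own and was taken to vary like the WT libraries, 4 segments passed, among them TRAV15-1-DV6-1 at 2.72 (edgeR adjusted p = 2.92e-07) and TRAV15D-2-DV6D-2 at 1.60 (edgeR adjusted p = 0.0346).

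DV segments were joined to TRAJ segments nearer the V-proximal end of the cluster than other TRAV in every library. The mean TRAJ number over distinct rearrangements of DV segments was 37.82 and 37.11 in WT, against 36.98 and 37.42 in Tet2/3 DKO. For other TRAV it was 29.01 and 28.91 in WT, against 28.88 and 28.36 in Tet2/3 DKO. The difference was 8.54 ± 0.469 (SD of the 4 differences), with DV segments higher in 4 of 4 libraries (exact two-sided sign-flip permutation p = 0.13, the smallest that 4 libraries allow). Other TRAV includes the DV names left out by the rule, which lay above DV segments in each library, at 42.65, 43.15, 43.49 and 42.78. Against TRAV without any DV name the difference was 9.31 ± 0.465, again higher in 4 of 4 libraries. TRDV segments reached 47.01, 47.10, 47.29 and 47.58 in the 4 libraries, and TRAV/DV segments 34.79, 34.25, 33.36 and 34.06. The gap between TRDV and TRAV/DV segments, 13.1 ± 0.755, was thus larger than the gap of 5.33 ± 0.594 between TRAV/DV segments and other TRAV. Between genotypes, DV segments had a mean TRAJ number of 37.5 ± 0.502 for WT against 37.2 ± 0.317 for Tet2/3 DKO (SD, n = 2 each; exact permutation p = 0.667). Their parts went opposite ways, each without overlap. TRAV/DV segments had 34.5 ± 0.382 for WT against 33.7 ± 0.496 for Tet2/3 DKO, a difference of -0.812. TRDV segments had 47.1 ± 0.0645 against 47.4 ± 0.203, a difference of 0.381. For both the exact permutation p was 0.33, or 0.8 and 0.5 after Benjamini-Hochberg adjustment over 6 measures.

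Single TRAJ segments followed the same order. In an edgeR quasi-likelihood test on distinct rearrangements per TRAJ segment, with the library as a block, 39 of 43 TRAJ segments (90.7%) differed between DV segments and other TRAV, 16 higher in DV segments (37.2%) and 23 lower (53.5%). All 8 tested segments of TRAJ48 and up were higher in DV segments, with a median log2 difference of 1.61. Of the 9 from TRAJ37 to TRAJ47, 7 were higher and 0 lower, with a median of 0.49. From TRAJ26 to TRAJ36, 8 of 9 were lower and 0 higher. From TRAJ15 to TRAJ25, all 8 were lower, with a median of -1.07. From TRAJ2 to TRAJ14, 7 of 9 were lower and 1, TRAJ7, was higher by 0.25 ± 0.11 (edgeR adjusted p = 0.0395). The median over all 43 was -0.44, and with TMM scaling, under which 16 were higher and 21 lower, it was -0.16. DESeq2 called 31, with 17 higher and 14 lower.

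The largest rise was that of TRAJ52, which made up 4.34% of the rearrangements of DV segments and 1.28% of those of other TRAV (means of 4 libraries; log2 difference 1.77 ± 0.09, SE, edgeR adjusted p = 3.29e-14). TRAJ56 held 5.65% and 1.69% (1.74 ± 0.07) and TRAJ57 5.10% and 1.60% (1.68 ± 0.08). The largest fall was that of TRAJ28, with 0.296% and 0.800% (-1.42 ± 0.20, edgeR adjusted p = 6.76e-07). TRAJ18, the J segment of the invariant iNKT chain, held 0.927% and 2.35% (-1.33 ± 0.13), and TRAJ17 held 1.33% and 3.16% (-1.26 ± 0.11). The levels of the 2 kinds of DV name lay apart. TRAJ57 held 2.96% of TRAV/DV and 11.7% of TRDV rearrangements, TRAJ56 3.76% and 11.4%, and TRAJ52 3.78% and 6.05%. For TRAV/DV segments alone the log2 differences from other TRAV were 0.90 ± 0.13 for TRAJ57, 1.15 ± 0.10 for TRAJ56 and 1.58 ± 0.12 for TRAJ52, and -1.07 ± 0.24, -1.06 ± 0.14 and -0.93 ± 0.10 for TRAJ28, TRAJ18 and TRAJ17, and edgeR called 34 of 43, 15 higher and 19 lower. For TRDV segments alone it called 39, 12 higher and 27 lower. Each of these 6 TRAJ segments kept its direction and its call under the 15 alternatives run for it, the TMM and DESeq2 scalings included. The difference in TRAJ use between DV segments and other TRAV was not found to depend on the genotype. The interaction term called 0 of 43 TRAJ segments (0%) with edgeR, with 0 at an unadjusted p under 0.05, and DESeq2 called 0 as well.

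**Figure D2:**
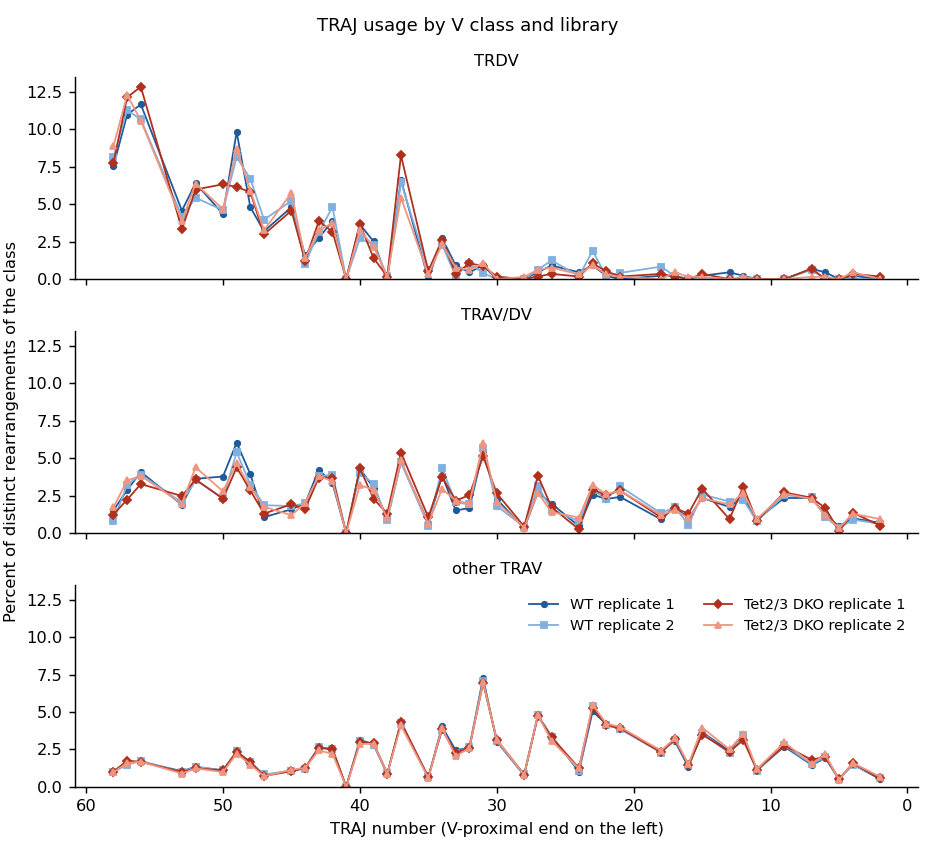
Percent of the distinct rearrangements of each V class (TRDV, TRAV/DV, other TRAV) that used each TRAJ segment, with TRAJ numbers falling from left to right and 1 line per library (2 WT, 2 Tet2/3 DKO). TRDV rearrangements crowd at the left, where TRAJ48 and up hold 59.2% to 61.4% of them, against 22.3% to 27.7% for TRAV/DV and 11.02% to 11.74% for other TRAV, and the lines of the genotypes run together.

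By segment, the mean TRAJ number followed the distance of the V segment from the TRAJ cluster. It was 47.2 (mean of 4 libraries) for TRDV2-2, whose end lies 193 kb from TRAJ61, and 47.2 for TRDV1, 273 kb away. It fell to 44.7 for TRAV13-4-DV7 at 397 kb and to 40.3 for TRAV4-4-DV10 at 471 kb. TRAV15-2-DV6-2 at 505 kb had 33.8 and TRAV15-1-DV6-1 at 595 kb had 33.3. The members with a D in their names, which lie farthest away, had the lowest means, 22.3 for TRAV14D-3-DV8 at 1076 kb, 19.4 for TRAV15D-2-DV6D-2 at 1198 kb and 26.3 for TRAV15D-1-DV6D-1 at 1291 kb, the last 2 with the ties to N copies given above. In this order, TRDV2-2 and TRDV1 overlapped over the libraries, and so did TRAV15-2-DV6-2 and TRAV15-1-DV6-1. TRDV2-1, with 39 rearrangements, had a mean of 49.0, and the 3 rearrangements of TRDV5 used TRAJ58, TRAJ49 and TRAJ57.

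Over the 9 members with at least 100 rearrangements, Pearson's r between position along the chromosome and mean TRAJ number was 0.94 and Spearman's rho 0.95, and over all 87 V segments with as many they were 0.75 and 0.69. These are descriptions across segments that share the same libraries and lie on 1 chromosome, and no p is given. Against the nearest V segments on either side that are not members, have at least 100 rearrangements and have ties in at most 10% of their clones, TRAV4-4-DV10 differed by -0.526 ± 0.825 TRAJ numbers (SD of 4 libraries) from the mean of TRAV9-4 and TRAV5-4. TRAV13-4-DV7 was 1.51 ± 1.91 from TRAV8-2 and TRAV14-3, and TRAV14D-3-DV8 -1.24 ± 1.03 from TRAV13D-4 and TRAV7N-4. None of these 3 lay on the same side of its neighbours in all 4 libraries. TRAV15-2-DV6-2 was lower than TRAV14-2 and TRAV3-3 in 4 of 4 libraries, by -2.76 ± 1.78. TRDV1 was lower than TRAV21/DV12, the nearest V segment on its upstream side, in 4 of 4 libraries, by -1.90 ± 0.558. For TRAV15D-2-DV6D-2 the segments this rule gives, TRAV13D-1 and TRAV6D-7, lie 105 kb and 50.2 kb away, and it was lower than their mean by -6.35 ± 0.773 in 4 of 4 libraries. Against TRAV14D-2 and TRAV3D-3, which lie 7.66 kb and 15.1 kb away but have ties in almost all of their clones, the difference was -2.83 ± 1.06, again lower in 4 of 4, in a comparison with no limit on ties added after the data were seen. TRDV2-2 was lower than TRAV21/DV12, 84.2 kb away, by -1.85 ± 0.790 in 4 of 4. For TRAV15-2-DV6-2, TRDV1, TRAV15D-2-DV6D-2 and TRDV2-2 the exact sign-flip p was 0.13, the smallest possible, or 0.281 adjusted over the 9 members (0.225 with no limit on ties). Lifting the limit on ties took TRAV15D-1-DV6D-1 from 0.597 ± 1.78, higher in 2 of 4 libraries, to 2.93 ± 1.98, higher in 4 of 4, and left the other 7 members with the same neighbours.

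**Figure D3:**
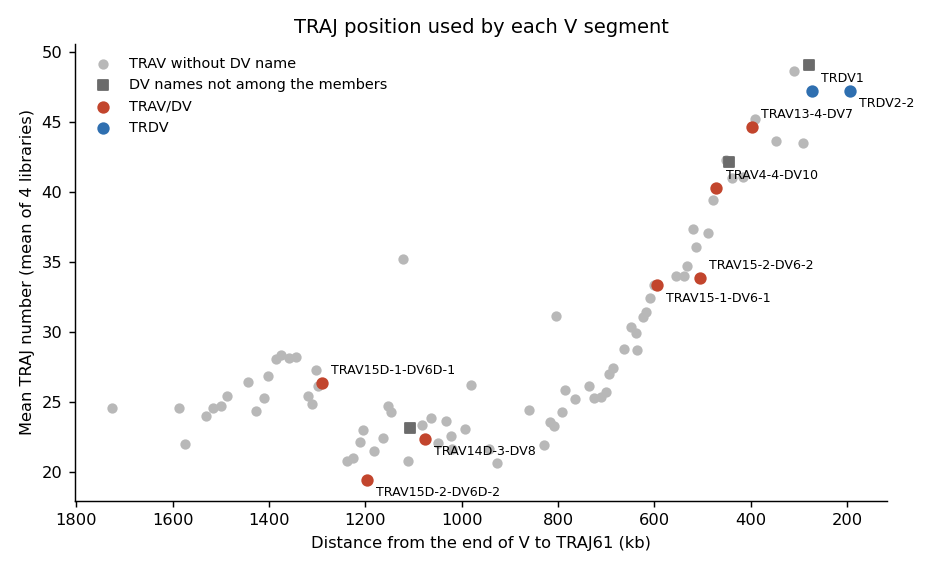
Mean TRAJ number of each V segment with at least 100 distinct rearrangements (mean of 4 libraries) against the distance in kb from the end of the V segment to TRAJ61, with the TRAJ cluster to the right. Members with a TRAV/DV name, members with a TRDV name, the DV names outside the rule and TRAV without DV are marked apart. TRAV15D-2-DV6D-2, at 19.4, lies below every other segment drawn. The other members lie along the band of the other segments, up to 47.2 for TRDV1 and TRDV2-2.

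The whole TRAJ profiles gave nearest partners of similar position. Likeness was measured as the sum of the absolute differences between TRAJ shares divided by 2, with shares averaged over the 4 libraries, among the 63 V segments with at least 500 rearrangements, the member itself included in that number, so that 0 means the same profile. Nearest to TRAV4-4-DV10 were TRAV6-7-DV9 (0.115) and TRAV7-6 (0.117), against a median distance of 0.483. Nearest to TRAV14D-3-DV8 were TRAV10N (0.0983) and TRAV6N-6 (0.120), nearest to TRAV13-4-DV7 were TRAV14-3 (0.161) and TRDV1 (0.186), and nearest to TRDV1 were TRAV21/DV12 (0.171) and TRAV14-3 (0.185).

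The CDR3 was slightly longer in DV segments than in other TRAV, and the excess lay with TRDV segments. In-frame rearrangements of DV segments had a mean of 13.46 and 13.48 amino acids in WT and 13.62 and 13.59 in Tet2/3 DKO, and other TRAV 13.39 and 13.40 in WT, against 13.44 and 13.48 in Tet2/3 DKO. The difference was 0.109 ± 0.0478 and was positive in 4 of 4 libraries (exact sign-flip p = 0.13). TRDV segments alone were longer by 0.624 ± 0.0544. For TRAV/DV segments alone it was -0.0569 ± 0.0386, negative in 4 of 4 libraries, but other TRAV includes the DV names left out by the rule, and against TRAV without any DV name it was -0.00810 ± 0.0426, higher in 1 of 4 libraries (exact sign-flip p = 0.625). Between genotypes, both Tet2/3 DKO libraries lay above both WT libraries for DV segments, at 13.60 ± 0.0192 and 13.47 ± 0.0164 (exact permutation p = 0.33). Other TRAV did the same, at 13.46 ± 0.0310 and 13.39 ± 0.00619.

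By segment, the long CDR3s were those of the TRAV15 and TRDV2 members, the segments with the long V ends shown above. The mean length was 15.52 amino acids for TRAV15-1-DV6-1, 15.26 for TRAV15-2-DV6-2, 15.18 for TRAV15D-1-DV6D-1 and 15.05 for TRAV15D-2-DV6D-2 (means of 4 libraries). TRDV2-2 reached 15.76. The lowest of these 5 segments in any library was 14.47, above the highest value of 13.89 found for TRDV1 and for the other 3 frequent members in any library. TRDV1 had 13.83, TRAV13-4-DV7 13.38, TRAV4-4-DV10 13.28 and TRAV14D-3-DV8 13.15. V-derived bases made up 17.8 nucleotides of the CDR3 of TRAV15-1-DV6-1 and 17.5 of that of TRDV2-2, against 11.2 for TRAV4-4-DV10 and 11.7 for TRDV1. TRAV15N-1, a TRAV15 copy without a DV name, had 15.38 amino acids (mean of 4 libraries) over 201 rearrangements.

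Bases added between V and J were on average fewer over all rearrangements of TRAV/DV segments and more over those of TRDV segments, and single members differed from their class. The mean number of inserted nucleotides was 2.01, 2.16, 2.13 and 2.14 in the libraries for TRAV/DV segments, 2.69, 2.59, 2.71 and 2.72 for TRDV segments and 2.31, 2.32, 2.33 and 2.29 for other TRAV, in the order WT replicates 1 and 2 and Tet2/3 DKO replicates 1 and 2. None of the 3 classes overlapped, and both differences from other TRAV, -0.198 ± 0.0696 and 0.367 ± 0.0672, had the same sign in 4 of 4 libraries (exact sign-flip p = 0.13). By segment, TRAV4-4-DV10 had 2.02 and TRAV14D-3-DV8 2.10 inserted nucleotides (means of 4 libraries), while TRAV15-2-DV6-2 had 3.06, above other TRAV in all 4 libraries, and TRAV15D-2-DV6D-2 2.47. TRDV1, with most of the TRDV rearrangements, had 2.73, and TRDV2-2 had 1.98 and 1.69 in WT, below other TRAV, against 2.83 and 2.56 in Tet2/3 DKO, above it. All DV segments together had a difference of -0.059 ± 0.0536 from other TRAV, lower in 4 of 4 libraries and turned round without TRAV4-4-DV10, at 0.0588 ± 0.0303. Joins with 0 inserted nucleotides made up 28.1% ± 2.13 of TRAV/DV rearrangements (SD, n = 4) and 24.9% ± 0.0713 of those of other TRAV.

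The share of rearrangements with an in-frame CDR3 and no stop codon was slightly higher in DV segments than in other TRAV, and varied widely among the members. For DV segments the share was 86.4% and 88.3% in WT, against 88.6% and 87.8% in Tet2/3 DKO. For other TRAV it was 85.4% and 86.1% in WT, against 85.8% and 85.7% in Tet2/3 DKO. The difference was 2.004 ± 0.783 percentage points, positive in 4 of 4 libraries (exact sign-flip p = 0.13). In the mean of the 4 libraries only the most used members lay above other TRAV, at 85.8%. These were TRAV14D-3-DV8 at 94.5%, TRAV4-4-DV10 at 90.6% and TRDV1 at 88.2%. Every other member lay below, from 33.3% for TRDV5, with 3 rearrangements, to 83.4% for TRDV2-2. TRDV segments alone, at 85.1%, 89.1%, 87.1% and 87.9%, were below other TRAV in WT replicate 1 and above it in the other 3 libraries. The genotypes overlapped, at 87.4% ± 1.36 for WT against 88.2% ± 0.582 for Tet2/3 DKO (exact permutation p = 0.667).

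By segment, edgeR's test of not in-frame against in-frame rearrangements called 74 of 98 V segments (75.5%), 43 higher in not in-frame rearrangements (43.9%) and 31 lower (31.6%). Of 10 tested members 8 passed, 5 higher and 3 lower, which is near the share of all segments. The median over all segments was 0.19, and 0.02 with TMM scaling, and all 8 kept their direction and their call with TMM. TRAV14D-3-DV8 had 94.2% and 95.6% in frame in WT and 94.2% and 94.0% in Tet2/3 DKO. Its share of the not in-frame rearrangements was lower than of the in-frame ones by -1.50 ± 0.13 on the log2 scale (SE, edgeR adjusted p = 9.61e-25), and the 6 TRAV14 segments without a DV name were all lower too, with 90.9% to 95.6% in frame. TRAV4-4-DV10 had 89.5% and 90.8% in WT, against 92.2% and 90.0% in Tet2/3 DKO (-0.67 ± 0.10, edgeR adjusted p = 1.43e-10), while 4 TRAV4 segments without DV and with at least 100 rearrangements ran from 76.4% to 92.4% and TRAV4D-2, annotated as a pseudogene, had 25.4%. TRDV1 had 86.5%, 89.0%, 87.9% and 89.3% (-0.31 ± 0.11, edgeR adjusted p = 0.00993), and lost its call without Tet2/3 DKO replicate 2 (-0.25, adjusted p = 0.0837).

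In the other direction, TRAV15-2-DV6-2 had the lowest in-frame share of the members with at least 100 rearrangements, in the mean of the libraries. It had 41.7% and 52.1% in WT, against 52.6% and 48% in Tet2/3 DKO (2.64 ± 0.21, edgeR adjusted p = 7.66e-29). TRAV15-1-DV6-1 had 60.9%, 71.7%, 63.3% and 74.1% in the same order (1.46 ± 0.24, edgeR adjusted p = 9.36e-09), and TRAV15D-1-DV6D-1 54.5%, 62.5%, 76.7% and 62.5% (1.66 ± 0.33, edgeR adjusted p = 1.49e-06). TRAV13-4-DV7 had 75.0% and 77.9% in WT, against 87.1% and 81.1% in Tet2/3 DKO (0.57 ± 0.13, edgeR adjusted p = 2.09e-05). It lost its call without WT replicate 2 (0.47, adjusted p = 0.120) and with DESeq2 (0.41, adjusted p = 0.105). TRAV15D-2-DV6D-2 had 69.6%, 95.8%, 52.2% and 76.5% over 23 to 34 rearrangements per library (1.08 ± 0.35, edgeR adjusted p = 0.00369), and lost its call without Tet2/3 DKO replicate 1 (0.57, adjusted p = 0.201) and with DESeq2 (0.88, adjusted p = 0.129). TRDV2-2 and TRDV2-1 did not pass, with 0.31 ± 0.24 and 1.05 ± 0.69. Low shares were also found in related segments without a DV name. TRAV15N-1 had 69.2% in frame and was called higher in not in-frame rearrangements too. Of the 9 TRAV13 segments without a DV name, 6 were called higher and 0 lower, with 51.8% to 88.1% in frame.

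**Figure D4:**
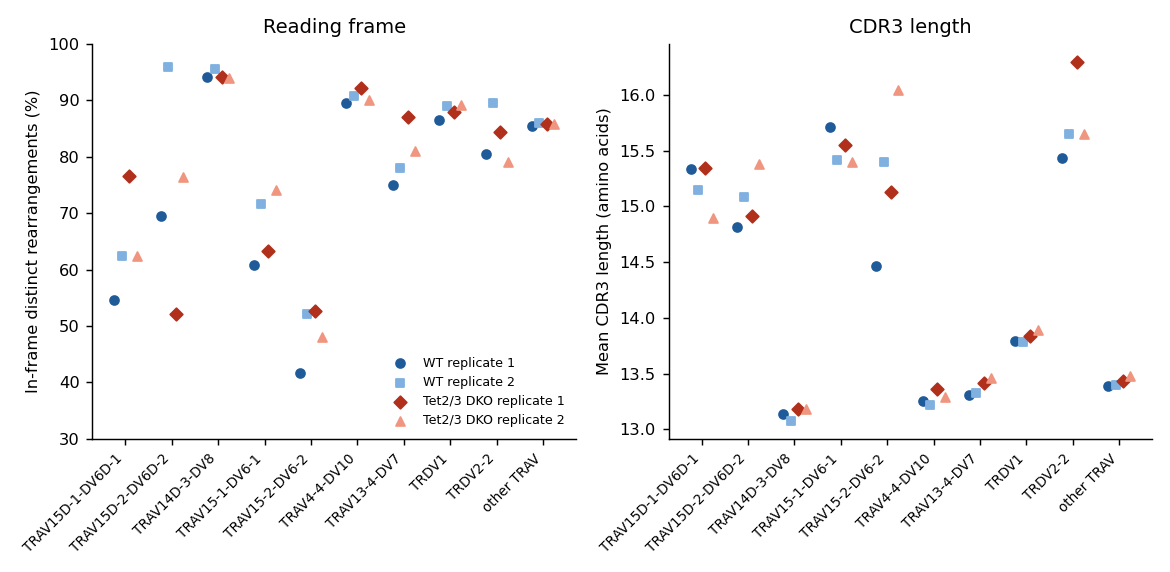
Left, percent of distinct rearrangements with an in-frame CDR3 and right, mean CDR3 length in amino acids of in-frame rearrangements for 9 DV segments and for other TRAV, with 1 point per library (2 WT, 2 Tet2/3 DKO; TRDV2-1 and TRDV5, with few rearrangements, are not drawn, and the axes do not start at 0). TRAV15-2-DV6-2 is lowest in frame in the mean of the libraries, with 41.7% to 52.6%. In Tet2/3 DKO replicate 1 TRAV15D-2-DV6D-2 lies slightly below it. The TRAV15 and TRDV2-2 segments lie at 14.47 amino acids or above in every library.

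Many TRAV15-2-DV6-2 clones lacked a stretch of the V part, a measure that was added after the data were seen. Clones were compared with the most abundant full-length V sequence of their segment, up to the start of the CDR3, and those at least 20 nucleotides shorter were placed with at most 3 mismatches. In TRAV15-2-DV6-2, 107 of 206 clones with a covered CDR3 start lacked the same 89 nucleotides, from base 80 to base 168 of its 270, which run from within CDR1 into CDR2. The stretch is shown because it begins with GT and ends with AG, the bases found at the ends of most introns, and how it came to be missing was not tested. It stands below in capitals with 15 bases on either side, as read in the intact clones, and beside it the stretch missing from TRAV13-4-DV7.
TRAV15-2-DV6-2: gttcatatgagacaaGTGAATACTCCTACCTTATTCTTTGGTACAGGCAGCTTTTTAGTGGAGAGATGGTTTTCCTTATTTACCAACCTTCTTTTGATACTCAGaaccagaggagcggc
TRAV13-4-DV7: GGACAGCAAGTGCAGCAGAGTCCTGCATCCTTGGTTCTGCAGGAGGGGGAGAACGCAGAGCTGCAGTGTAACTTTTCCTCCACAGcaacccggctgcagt
In TRAV13-4-DV7 the missing stretch was the first 85 of 258 nucleotides, and it ends with AG but has no base before it in these sequences.

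The share of TRAV15-2-DV6-2 clones without the 89 nucleotides was 66.7% and 46.2% in WT, against 54.8% and 43.4% in Tet2/3 DKO. The genotypes overlapped, at 56.4% ± 14.5 and 49.1% ± 8.09 (SD, n = 2 each; exact permutation p = 0.667). This was the highest share of shortened clones among 87 V segments with at least 100 clones, where the median of the 78 other TRAV segments was 0.246%. TRAV15D-2-DV6D-2 lacked the stretch at the same place in 10 of 110 clones, 8.70% and 12.5% in WT, against 8% and 7.89% in Tet2/3 DKO (exact permutation p = 0.33). TRAV15-1-DV6-1 had 1 shortened clone of 194, TRAV15D-1-DV6D-1 0 of 109, which allows a share of up to 2.75%, and TRDV1 0 of 2124, which allows up to 0.141%. TRAV13-4-DV7 lacked its first 85 nucleotides in 177 of 1021 clones, 14.4% and 23.8% in WT, against 19.5% and 11.3% in Tet2/3 DKO (exact permutation p = 0.667). With any stretch counted, 18.3% of TRAV13-4-DV7 clones were shortened, and the 9 TRAV13 segments without a DV name ran from 0.195% in TRAV13N-3 to 37.5% in TRAV13N-4. Stretches with GT and AG at their ends were also found in TRAV14 segments, most often in TRAV14D-1, with 274 of 5157 clones.

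The shortened TRAV15-2-DV6-2 clones had fewer in-frame CDR3s than the intact ones. Of shortened clones, 30.8% and 20.8% in WT, against 32.4% and 26.1% in Tet2/3 DKO had an in-frame CDR3. Of intact clones, 61.5% and 75.0% in WT, against 78.6% and 63.3% in Tet2/3 DKO had one. The shares did not overlap, and the difference of -42.1 ± 10.2 percentage points had the same sign in 4 of 4 libraries (exact sign-flip p = 0.13). Of TRAV13-4-DV7 clones, 81.4% of the 177 without the 85 nucleotides and 80.5% of the intact ones had an in-frame CDR3. Neither 85 nor 89 is a multiple of 3, and in frame here describes the CDR3 alone.

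**Figure D5:**
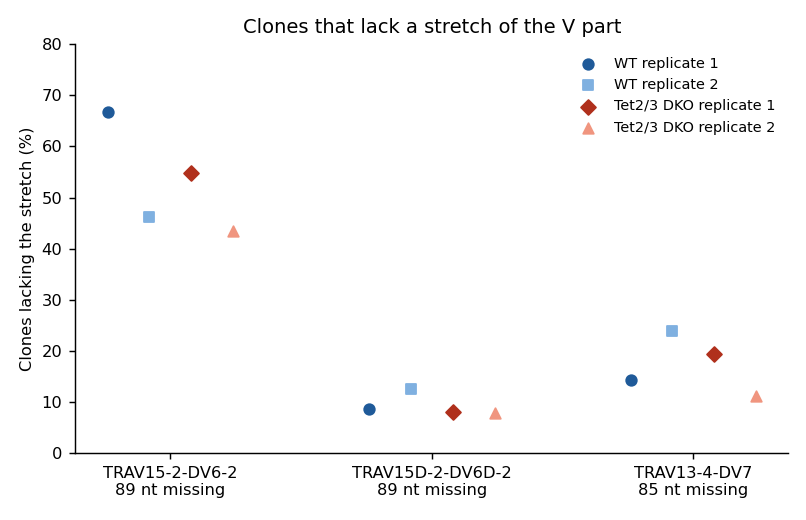
Percent of the clones of TRAV15-2-DV6-2, TRAV15D-2-DV6D-2 and TRAV13-4-DV7 that lack the named stretch of the V part, with 1 point per library (2 WT, 2 Tet2/3 DKO). TRAV15-2-DV6-2 lies between 43.4% and 66.7%, TRAV15D-2-DV6D-2 between 7.89% and 12.5% and TRAV13-4-DV7 between 11.3% and 23.8%, and the genotypes overlap in the first and the last.

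Most DV rearrangements, like most of other TRAV, were found in 1 library. Of 7795 distinct DV rearrangements over the 4 libraries, 7128 (91.4%) were in 1 library, 494 (6.34%) in 2, 127 (1.63%) in 3 and 46 (0.590%) in all 4. For other TRAV the shares were 90.0% in 1 library, 7.06% in 2, 1.997% in 3 and 0.973% in all 4. Joins with 0 inserted nucleotides rose from 21.0% of those in 1 library to 76.1% of those in all 4, and from 19.6% to 60.0% in other TRAV. All 46 were in frame. TRAV4-4-DV10 gave 22 of them, TRAV14D-3-DV8 17, TRDV1 5 and TRAV13-4-DV7 and TRDV2-2 1 each.

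The 5 of these 46 with the most reads are shown as examples of joins found in every library. All of them join V and J without an inserted base, so that their CDR3s, printed in lower case, have no added base to mark in capitals.
TRDV1 with TRAJ37: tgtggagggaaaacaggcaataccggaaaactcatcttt
TRAV14D-3-DV8 with TRAJ7: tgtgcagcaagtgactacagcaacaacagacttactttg
TRAV4-4-DV10 with TRAJ56: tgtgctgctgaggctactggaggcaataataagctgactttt
TRAV13-4-DV7 with TRAJ56: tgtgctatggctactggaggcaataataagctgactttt
TRAV14D-3-DV8 with TRAJ22: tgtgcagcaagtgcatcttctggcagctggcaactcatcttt
The TRDV1 rearrangement had 760 and 7 reads in WT and 2 and 8 in Tet2/3 DKO, so that 1 WT library held nearly all of its reads. The TRAV14D-3-DV8 rearrangement with TRAJ7 was even, with 86 and 80 reads in WT and 85 and 146 in Tet2/3 DKO. TRAV4-4-DV10 with TRAJ56 had 56 and 218 in WT, against 25 and 38 in Tet2/3 DKO, and TRAV13-4-DV7 with TRAJ56 had 47 and 45 in WT, against 71 and 81 in Tet2/3 DKO. TRAV14D-3-DV8 with TRAJ22 had 79 and 51 in WT, against 47 and 49 in Tet2/3 DKO.

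The most abundant in-frame DV clone of each library held a small part of all reads. In WT replicate 1 it was a TRDV1 clone with TRAJ37, the rearrangement above, with 731 reads, 0.424% of the library (95% Wilson interval 0.394% to 0.456%) and 7.76% of its DV reads. In WT replicate 2 it was TRAV4-4-DV10 with TRAJ56, also above, with 213 reads (0.0984%). In Tet2/3 DKO replicate 1 it was a TRAV4-4-DV10 clone with TRAJ49 and 154 reads (0.0790%), and in Tet2/3 DKO replicate 2 a TRAV15-1-DV6-1 clone with TRAJ13 and 808 reads (0.281%, interval 0.262% to 0.301%). Their CDR3s, with inserted bases in capitals, were as follows.
TRAV4-4-DV10 with TRAJ49: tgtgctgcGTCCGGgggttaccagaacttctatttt
TRAV15-1-DV6-1 with TRAJ13: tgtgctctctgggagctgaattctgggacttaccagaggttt
Both of these rearrangements had reads in 1 library and 0 in the other 3, the first with 6 inserted nucleotides and the second with 0.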

How the data were processed

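TCR alpha libraries of sorted splenic CD4 T cells from 2 WT and 2 Tet2/3 DKO mice were examined, grouped by the genotype in the labels. The authors made them from 20 ng of RNA with a 5′ RACE kit, sequenced them on a MiSeq, and assembled clones with MiXCR. The submitters' processing notes also name bcl2fastq 2.20.0, fastp 0.21.0 and mm10. For each clone the authors deposited the count of its reads and its fraction of the reads of the table. The fraction served only to check the counts, with which it agreed, and no authors' comparison was used. TCR beta tables were not used, since they do not pair the chains.

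The first V and J hits were taken without allele. Clones without a covered CDR3, 1.11% to 1.95% of DV reads, did not enter measures of the CDR3 or of rearrangements. Of DV clones, 25.9% to 28.8% had 1 read. Reads per segment, and rearrangements per TRAJ segment or per frame, were tested with edgeR 4.0.16 (R 4.3.3; quasi-likelihood, at least 10 counts in total, scaled by column totals, Benjamini-Hochberg over all segments tested, threshold 0.05). Fits of V class and of frame had the library as a block. DESeq2 1.42.0 and TMM were alternatives. Values per library were compared by exact two-sided permutation, with scipy 1.17.1, pandas 2.3.3 and numpy 2.4.6 in Python 3.11.15. The count fits and the placing of missing stretches were tested on simulated data. Positions came from RefSeq by symbol, and all 101 V segments matched.

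Named are all 11 members, the most abundant in-frame DV clone per library, the 5 most read rearrangements found in all 4 libraries, the 3 TRAJ segments with the largest rise and the 3 with the largest fall, and the 2 nearest TRAJ profiles of each member with at least 500 rearrangements. Members, lists and tests were chosen with earlier results of these data known. Replicates differed by more than independent draws of reads would give, with a chi-square per degree of freedom over V segments of 36.3 in WT and 80.8 in Tet2/3 DKO. Reads include PCR copies and large clones, so these values do not measure differences between mice alone.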

Additional observations from a re-analysis of the deposited data

Results flagged for a closer look

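In each of the 4 comparisons flagged here every WT library lay on one side of 0 and every Tet2/3 DKO library on the other. The share of joins without inserted nucleotides in TRDV segments minus that in other TRAV was 0.406 and 0.949 percentage points in WT, with a mean of 0.677, and -1.30 and -1.33 in Tet2/3 DKO, with a mean of -1.32. The exact permutation p of this difference between genotypes was 0.33, the smallest that 2 against 2 libraries allow. The mean TRAJ number of TRAV15-1-DV6-1 minus that of its neighbours TRAV14-1 and TRAV4-3 was 0.701 and 1.59 in WT, with a mean of 1.14, and -2.20 and -1.52 in Tet2/3 DKO, with a mean of -1.86, over 23 to 58 rearrangements per library. This difference was not tested. The mean number of inserted nucleotides of TRDV2-2 minus that of other TRAV was -0.333 and -0.630 in WT, with a mean of -0.481, and 0.501 and 0.267 in Tet2/3 DKO, with a mean of 0.384, over 46 to 72 rearrangements per library. That of TRAV15D-1-DV6D-1 was 0.416 and 0.277 in WT, with a mean of 0.346, and -0.0607 and -0.445 in Tet2/3 DKO, with a mean of -0.253, over 11 to 32 rearrangements per library. For both the exact permutation p between genotypes was 0.33. The 4 were picked out of many measures by their direction.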

How the results depend on the processing

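With 2 libraries per genotype no comparison of single values can pass the exact permutation test, clones of 1 read make up 25.9% to 28.8% of DV clones, and rare members rest on few reads. The share of DV reads (Tet2/3 DKO minus WT, -0.288 percentage points) turned to 0.348 with each clone counted once and to 0.486 with all DV names taken in. The difference in mean TRAJ number (-0.267) turned to 0.0405 with at least 2 reads per rearrangement, 0.0403 without TRAV4-4-DV10 and 0.381 for TRDV segments, and ran from -0.621 to 0.0883 with a library left out. The difference in in-frame share (0.817) turned to -1.09 when weighted by reads, and ran from -0.147 to 1.78 with a library left out. Against other TRAV, the difference in CDR3 length turned to -0.0569 for TRAV/DV segments (-0.00810 against TRAV without any DV name), and that in inserted nucleotides to 0.0588 without TRAV4-4-DV10 and 0.367 for TRDV segments. The split into TRAV/DV and TRDV names was chosen after seeing the data. The cause of these changes was not tested.

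For usage, log2 fold changes turned on distinct rearrangements to 0.0168 for TRAV14D-3-DV8, 0.17 for TRAV15-2-DV6-2, 0.0901 for TRAV4-4-DV10, 0.19 for TRDV1 and 0.34 for TRDV2-2, and to 0.17 for TRDV1 without the 10 most abundant clones of each library. With a library left out, the number of segments called ran from 0 to 4, and the fold changes ran from -0.30 to 0.20 for TRAV13-4-DV7, -0.52 to 0.32 for TRAV15-2-DV6-2, -0.14 to 1.27 for TRAV15D-1-DV6D-1, -0.0903 to 1.60 for TRAV15D-2-DV6D-2, -0.36 to 0.15 for TRDV1, -0.84 to 0.97 for TRDV2-1 and 0.48 to 2.72 for TRAV15-1-DV6-1. With the replicate number as a block, 0 of 101 segments passed in edgeR, where the smallest adjusted p was 0.0512, and 2 had an unadjusted p under 0.05. Deviations of same-numbered libraries correlated at r = 0.0664 over 101 V segments. With 2 libraries per genotype this cannot tell whether they share more than a number. The share of TRAV15D-2-DV6D-2 clones without the 89 nucleotides moved to 12.8% with at least 2 reads per clone. The number of TRAJ segments that differed between DV segments and other TRAV ran from 28, with not in-frame rearrangements only, to 39.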
